A study of Homo sapiens with 4 samples.

Results

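The genes described here are 28 targets of the tumour suppressor p53 and 12 genes of nucleotide excision repair, taken from a list of gene symbols that was drawn up with earlier results of these data known. Of these 40 symbols, 39 stood in the deposited table of 57659 Ensembl genes (27 p53 targets and 12 repair genes). The other symbol, TIGAR, stood there under its older name C12orf5 and is given apart. Expression was measured by poly(A) RNA-seq in 786-0, an established line of human renal carcinoma cells. The cells of 2 libraries, Control 1 and Control 2, received control siRNA, and those of the other 2 received siRNA against SLFN5 (SLFN5 siRNA 1 and SLFN5 siRNA 2), an interferon-regulated gene of the Schlafen family. The labels name no other treatment, no siRNA sequence and no time after transfection, and they do not say whether the libraries are from different cultures. The p-values thus measure the spread between these libraries, which may be technical.

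p53 is a transcription factor that accumulates after DNA damage and other stress. It binds paired decamers near its target genes, whose products halt the cell cycle, cause cell death, adjust metabolism, or, as MDM2 does, return p53 to low levels. Nucleotide excision repair removes bulky lesions such as those made by ultraviolet light. XPC with RAD23B and the DDB1-DDB2 complex recognise lesions across the genome, ERCC6 and ERCC8 act where RNA polymerase stalls, the helicases ERCC2 and ERCC3 open the DNA with XPA, and ERCC5 and the ERCC1-ERCC4 pair cut the damaged strand. The pathways meet in XPC and DDB2, repair genes that are themselves known p53 targets.

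The sequences below show where a p53 decamer, the unit that stands paired in a p53 binding element, was found near the starts of these genes. RefSeq promoter windows (GRCh38.p14, 250 bases before and 50 after each gene start) were found for 34 of the 39 genes, 50 windows in all. Of the 34 genes, 6 (17.6%) held a decamer, against 8.06% of 27305 genes and 6.63% of 35116 windows. Most of the 34 were listed because they are p53 targets, so the higher share is not read as a result. Each line gives 30 bases, 5′ to 3′ on the strand of the gene, with the decamer in capitals.
DDB2: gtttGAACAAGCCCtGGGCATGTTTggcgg
FDXR: gggcaggagcGGGCTTGCCCtgcggagcag
PLK2: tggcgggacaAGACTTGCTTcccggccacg
AEN: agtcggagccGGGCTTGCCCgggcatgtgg
SESN1: attgtcgtctGGACAAGTCTccacaagtca
FAS: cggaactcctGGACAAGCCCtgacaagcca
The DDB2 stretch lies at chr11:47214975-47215004 on the + strand. It holds a pair of decamers with a spacer of 1 base, which cover bases 6 to 26 counted from the gene start, in the transcribed part. A pair with a spacer of at most 13 bases stood in only 10 of the 35116 windows (0.0285%). The other decamers end before the start, in stretches at chr17:74872986-74873015 (FDXR, - strand), chr5:58460199-58460228 (PLK2, - strand), chr15:88621296-88621325 (AEN, + strand), chr6:109009018-109009047 (SESN1, - strand) and chr10:88991299-88991328 (FAS, + strand). The motif is a palindrome in its pattern, so a search of one strand covers both. Of these 6 genes, DDB2 and FDXR were higher after SLFN5 siRNA, PLK2 was lower, and AEN, SESN1 and FAS did not pass the test. A match is a description of these letters, not of binding.

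Values below are equalised counts, the authors' read counts per gene moved towards one library size, and a log2 change is the SLFN5 siRNA mean minus the control mean of log2(value + 1), given with its standard error (SE). Whole counts recovered from the deposited values summed to 13187517 to 31905328 per library, with Control 1 the deepest at 2.42 times Control 2. SLFN5 stood at 420 and 353 in the controls and at 167 and 118 after its siRNA, 36.8% of the control level. All 8 markers listed for renal carcinoma and tubule cells were tested, PAX8, KRT8 and KRT18 did not pass, and 3 changed: CDH6 (log2 change 1.42, limma adjusted p = 0.00215) and KRT19 (0.71, 0.0114) were higher and VIM (-0.46, 0.0140) lower. Of the leukocyte and endothelial markers, 0 of 5 and 0 of 4 reached the filter. CD3E and PECAM1 had 0 recovered counts in every library, but others had a few. In Control 1, Control 2, SLFN5 siRNA 1 and SLFN5 siRNA 2, CD14 had 9, 6, 2 and 2, and KDR had 9, 6, 6 and 9. Of 6 fibroblast markers, 3 reached the filter. PDGFRB was lower (26.9 and 24.8 against 4.12 and 10.2, log2 change -1.82, limma adjusted p = 0.0336). It filled the filter through the controls, where it was high, and after SLFN5 siRNA only SLFN5 siRNA 2 reached 10. Its call is thus not read as a result. LUM (-0.96, 0.0789) and COL1A1 (-0.19, 0.772) did not pass. The part of these 3 markers in the results was not tested. All 39 genes passed the filter of at least 10 equalised counts in at least 2 libraries, and limma with Benjamini-Hochberg adjustment over the 15640 genes tested, at an adjusted p of 0.05, made every call.

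The p53 targets did not move as a block. Of the 27 p53 targets, 5 were higher and 5 lower after SLFN5 siRNA, and 17 did not pass. Over all genes tested, 29.6% passed, 13.3% higher and 16.3% lower, against 37.0% of the p53 targets. The median log2 change of the p53 targets was 0.10, beside -0.03 for all genes. Of the 12 repair genes, 2 were higher and 3 lower (41.7%), with a median of -0.10. These shares lie not far above the background, and the directions are nearly balanced within each set. Of the 15 called genes, 7 passed under all 13 alternatives run: MDM2, GADD45A, GADD45B, BTG1, PLK2, TNFRSF10B and XPC. The other 8 (CDKN1A, BTG2, FDXR, SPATA18, RAD23B, DDB2, ERCC3 and ERCC4) lost their call when limma was run without its intensity trend, which lets the variance prior follow the expression level (limma adjusted p from 0.0661 to 0.170). Of the 24 genes not past the test, 9 changed direction under at least 1 alternative without passing there (GADD45G, PLK3, TP53INP1, ZMAT3, SESN1, SESN2, ERCC8, XPA and ERCC2). The count of higher p53 targets went from 5 to 8 in limma-voom with library totals. In that setting 2800 of all genes were higher and 1823 lower (2086 and 2544 above). The 5 called repair genes became 4 higher and 1 lower in limma-voom. Without Control 2 or without SLFN5 siRNA 1, fewer p53 targets were called higher and fewer repair genes were called. The number of calls over all genes fell in these settings too.

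**Figure D1:**
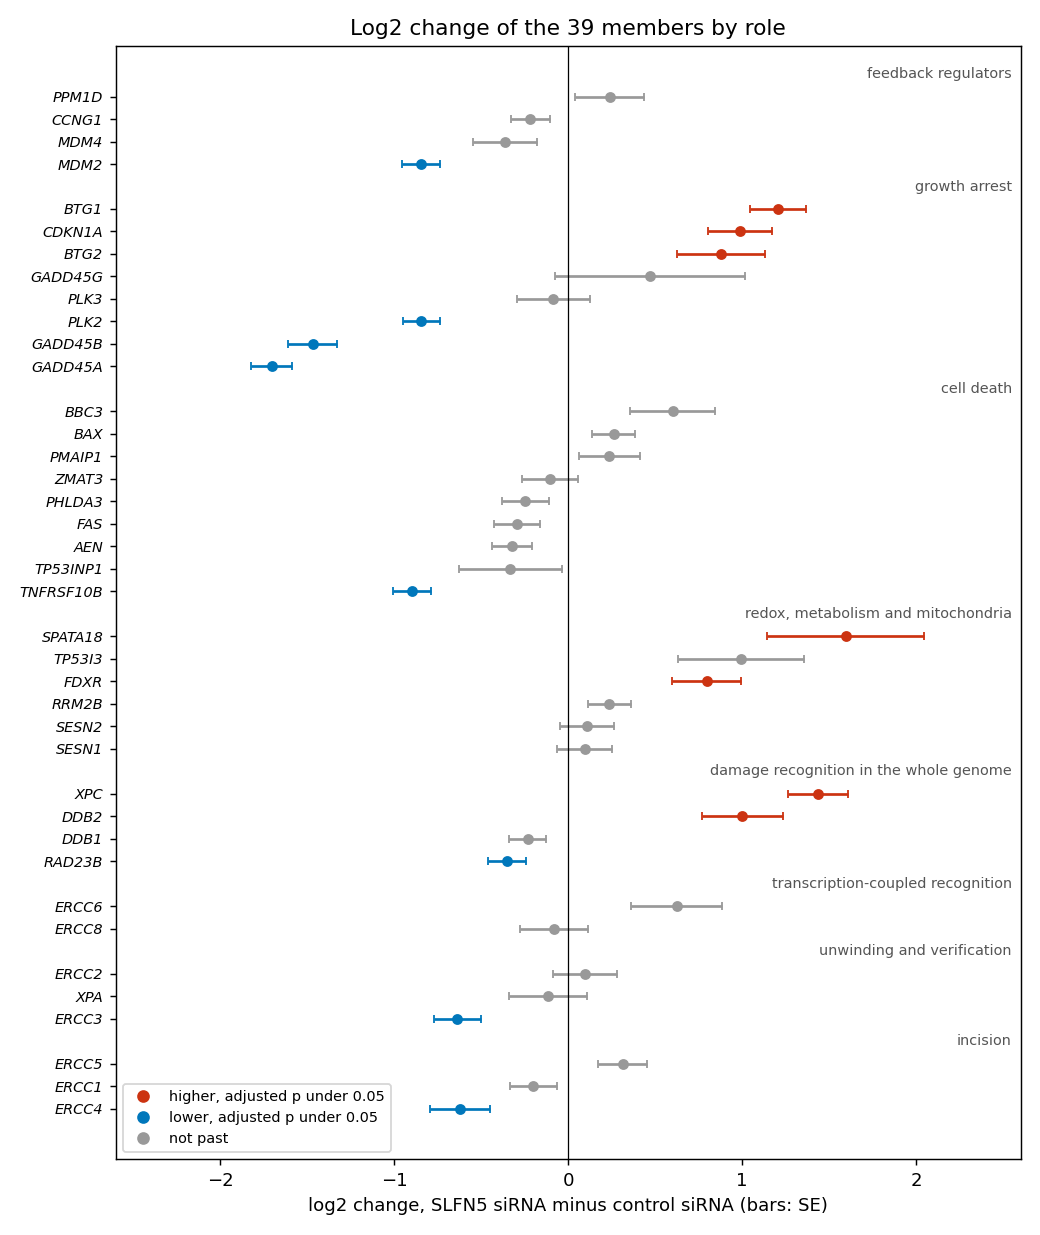
Log2 change of each of the 39 genes (horizontal axis, SLFN5 siRNA minus control siRNA; points with SE, n = 2 libraries per group), ordered by role. Genes past an adjusted p of 0.05 are red when higher and blue when lower; GADD45A at -1.71 and SPATA18 at 1.60 lie at the ends, and each set holds both directions.

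Of the 4 feedback regulators only MDM2 passed the test (25%, against 29.6% of all genes). MDM2 (ENSG00000135679), the ubiquitin ligase that marks p53 for degradation and is a p53 target itself, stood at 3399 and 3361 equalised counts in the controls and at 1930 and 1830 after SLFN5 siRNA. The 2 control libraries lay within 1.01 times of each other, and both SLFN5 siRNA libraries lay far below them. The log2 change was -0.85 (SE 0.11, limma adjusted p = 0.000227), or 55.6% of the control level. Its relative MDM4, which binds and silences p53, had means of 621 ± 134 and 481 ± 86.1 (SD, n = 2) and overlapping groups (log2 change -0.36, limma adjusted p = 0.165). The MDM4 value went from -0.14 without Control 2 to -0.58 without Control 1, where it passed (limma adjusted p = 0.0421). Cyclin G1 (CCNG1) had a log2 change of -0.22 and the phosphatase PPM1D one of 0.24, and neither passed (limma adjusted p = 0.175 and 0.407).

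Of the 8 growth arrest genes, 3 were higher, 3 lower and 2 not past the test (75% called, against 29.6% of all genes). CDKN1A (ENSG00000124762), the cyclin-dependent kinase inhibitor p21, stood at 4645 and 2860 equalised counts in the controls and at 7853 and 6639 after SLFN5 siRNA. Every SLFN5 siRNA value lay above every control value, although Control 1 was 1.62 times Control 2. The log2 change was 0.99 (SE 0.18, limma adjusted p = 0.00221), 0.64 without Control 2, and not past the test without the intensity trend (limma adjusted p = 0.101).

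BTG1 and BTG2, related antiproliferative proteins that bind the deadenylase complex, were both higher. BTG1 (ENSG00000133639) stood at 333 and 310 in the controls and at 831 and 664 after SLFN5 siRNA, a 2.32-fold increase (log2 change 1.21, SE 0.16, limma adjusted p = 0.000279). BTG2 (ENSG00000159388) stood at 89.2 and 70.4 against 135 and 159, with a log2 change of 0.88 (SE 0.25, limma adjusted p = 0.0212). The groups of neither gene overlapped, but the call for BTG2 was lost without Control 2 (limma adjusted p = 0.152) or SLFN5 siRNA 2 (0.0992).

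The GADD45 stress proteins bind PCNA and the kinase MTK1, and 2 of the 3 genes were lower. GADD45A (ENSG00000116717) fell from 2974 and 3157 equalised counts to 986 and 894, or 30.7% of the control level, the largest decrease of the 39 genes (log2 change -1.71, SE 0.12, limma adjusted p = 6.41e-06). GADD45B (ENSG00000099860) fell from 1428 and 1710 to 599 and 531, or 36.0% (log2 change -1.47, SE 0.14, limma adjusted p = 3.88e-05). In both genes the SLFN5 siRNA libraries lay close together and far below the controls. GADD45G was low at 14.9, 17.2, 13.4 and 37.6 in the 4 libraries, with overlapping groups (log2 change 0.47, SE 0.55, limma adjusted p = 0.566).

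The polo-like kinases of the list differed. PLK2 (ENSG00000145632), a kinase of centriole duplication, fell from 10556 and 11672 to 6143 and 6214 equalised counts (log2 change -0.85, SE 0.11, limma adjusted p = 0.000198). PLK3, a stress-responsive relative, had overlapping groups at 306 and 375 against 262 and 390 (log2 change -0.09, limma adjusted p = 0.802).

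**Figure D2:**
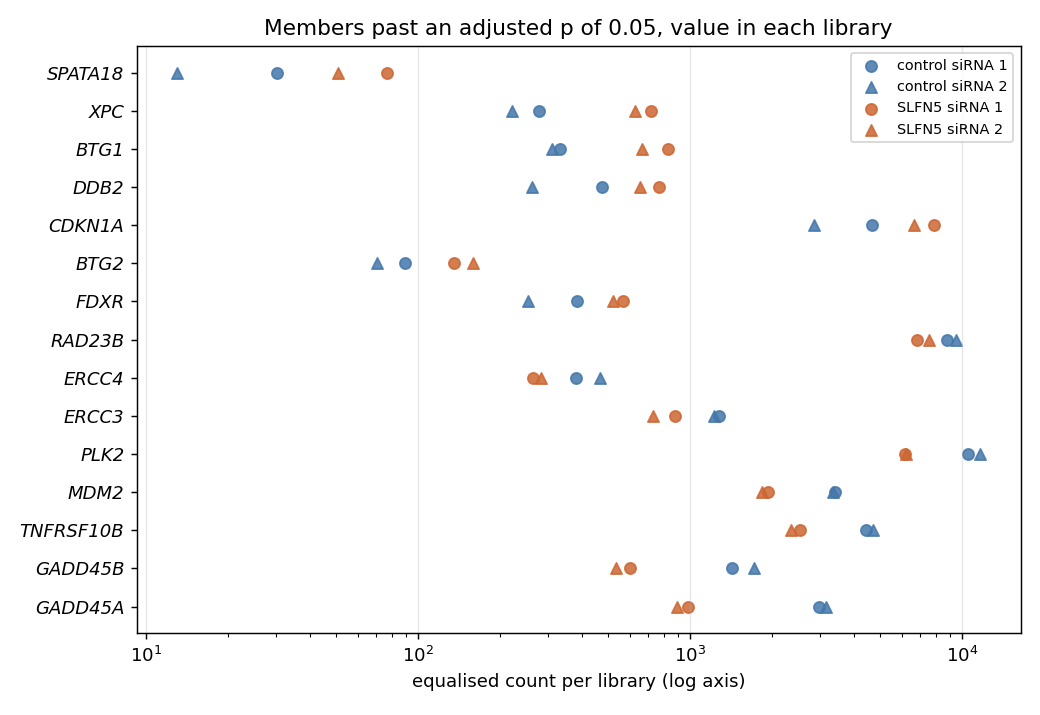
Equalised count in each library (horizontal log axis) for the 15 genes past the test, with controls in blue, SLFN5 siRNA in orange, circles for library 1 and triangles for library 2 of each group. The groups do not overlap in any of the 15, which were chosen by the test of these same values. Over all genes tested, the groups did not overlap in 64.6%. For CDKN1A, DDB2, FDXR and SPATA18 the 2 controls lie far apart, with Control 1 above Control 2.

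Among the 9 cell death genes, 1 was lower (11.1%, against 29.6% of all genes called) and the other 8 did not pass. That gene was TNFRSF10B (ENSG00000120889), the death receptor DR5 for the ligand TRAIL, which fell from 4416 and 4685 equalised counts to 2538 and 2341 (log2 change -0.90, SE 0.11, limma adjusted p = 0.000158). The SLFN5 siRNA mean was 53.6% of the control mean. Of its close relatives, which were listed outside the 39 genes, TNFRSF10A (log2 change -0.62) and the decoy receptor TNFRSF10D (-0.83) were lower too, though TNFRSF10A was lost without Control 2. A further relative, TNFRSF10C, was low at 13.7 and 9.16 against 17.4 and 10.7 and did not pass (log2 change 0.26, limma adjusted p = 0.776). FAS, the receptor of another death ligand, stood at 1116 and 1066 against 829 and 953 and did not pass (log2 change -0.29, SE 0.13, limma adjusted p = 0.114).

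No gene of the mitochondrial arm of cell death passed in limma on the equalised counts, although 2 of the 3 did under an alternative. BAX, which permeabilises the outer mitochondrial membrane, stood at 1481 and 1288 equalised counts in the controls and at 1700 and 1611 after SLFN5 siRNA. Its groups did not overlap, but the log2 change of 0.26 (SE 0.12) did not pass (limma adjusted p = 0.135), while limma-voom with library totals gave 0.37 (limma adjusted p = 0.0425). BBC3, which encodes the BH3 protein PUMA, stood at 263 and 189 against 432 and 265 (log2 change 0.60, SE 0.25, limma adjusted p = 0.0886). SLFN5 siRNA 2 lay just above Control 1 for BBC3, which passed without Control 1 or without SLFN5 siRNA 2 (limma adjusted p = 0.0119 and 0.0188) and in limma-voom (0.0413). PMAIP1, the BH3 protein NOXA, had overlapping groups (log2 change 0.24, limma adjusted p = 0.350).

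The other cell death genes did not pass on the equalised counts. The nuclease AEN had a log2 change of -0.33 at the edge of the threshold (SE 0.11, limma adjusted p = 0.0509), with 2512 and 2559 against 2142 and 1911, and passed without SLFN5 siRNA 1 (0.0423). PHLDA3, an inhibitor of AKT, ZMAT3, an RNA-binding zinc finger protein, and TP53INP1 had log2 changes of -0.25, -0.11 and -0.33, and none passed (limma adjusted p = 0.195, 0.666 and 0.440). The SE of TP53INP1 was 0.30, so a change of moderate size was not detectable there.

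Of the 7 genes listed for metabolism and mitochondria, the 6 found under their listed symbol had log2 changes above 0, while TIGAR had one below 0. Of the 6, 2 passed (33.3%, against 29.6% of all genes), and 2 (SESN1 and SESN2) were below 0 without Control 2. FDXR (ENSG00000161513), the reductase that passes electrons to mitochondrial ferredoxin, rose from 384 and 253 equalised counts to 564 and 521 (log2 change 0.80, SE 0.20, limma adjusted p = 0.0107). SPATA18 (ENSG00000163071), also called MIEAP and involved in mitochondrial quality control, rose from 30.3 and 12.97 to 76.6 and 50.5 (log2 change 1.60, SE 0.45, limma adjusted p = 0.0199). For both genes the calls were lost without Control 2 (limma adjusted p = 0.126 for FDXR and 0.142 for SPATA18) or SLFN5 siRNA 1 (0.0603 and 0.121). TP53I3, a quinone oxidoreductase, stood at 56.0 and 32.0 against 107 and 68.0 and did not pass (log2 change 1.00, SE 0.36, limma adjusted p = 0.0585), but did without Control 1 (0.0118) or SLFN5 siRNA 2 (0.0431). The sestrins SESN1 and SESN2, which restrain mTORC1, had log2 changes of 0.10 and 0.11 with overlapping groups, and the ribonucleotide reductase subunit RRM2B one of 0.24. TIGAR, a phosphatase that restrains glycolysis, stood under C12orf5 at 604 and 594 against 329 and 509 (log2 change -0.55, SE 0.19, limma adjusted p = 0.0529). Its groups did not overlap, and it passed under some alternatives, among them no filter on low values and a filter at 50.

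Recognition of lesions across the genome was the step of excision repair with the largest changes: XPC and DDB2 were higher, while their partners RAD23B and DDB1 were not. XPC (ENSG00000154767), the lesion sensor, rose from 279 and 221 equalised counts to 720 and 629, a 2.70-fold increase (log2 change 1.43, SE 0.17, limma adjusted p = 0.000143). DDB2 (ENSG00000134574), whose gene start holds the paired decamers shown above, rose from 473 and 262 to 766 and 651 (log2 change 1.00, SE 0.23, limma adjusted p = 0.00745). The groups of both genes were apart. For DDB2 Control 1 was 1.80 times Control 2, the log2 change was 0.58 without Control 2, and the call was lost without SLFN5 siRNA 1 (limma adjusted p = 0.0585). DDB1, the large partner of DDB2 and an adaptor of CUL4 ubiquitin ligases, had 8268 and 7582 against 6603 and 6867 and did not pass (log2 change -0.23, SE 0.11, limma adjusted p = 0.121).

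RAD23B (ENSG00000119318), which binds and stabilises XPC, went from 8808 and 9499 equalised counts to 6823 and 7529 (log2 change -0.35, SE 0.11, limma adjusted p = 0.0301). Both SLFN5 siRNA libraries lay below both controls. This decrease, the smallest called change of the 39 genes, was lost when the values were scaled by median ratios (limma adjusted p = 0.0506), upper quartiles (0.0709) or, in limma-voom, library totals (0.143), and without Control 1 (0.0641), Control 2 (0.230) or SLFN5 siRNA 1 (0.144).

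Unwinding with verification and incision each had 1 of 3 genes past the test on the equalised counts (33.3%, against 29.6% of all genes). Each of these was lower. ERCC3, the XPB helicase of the general transcription factor TFIIH, fell from 1279 and 1221 equalised counts to 881 and 731 (log2 change -0.64, SE 0.14, limma adjusted p = 0.00454). ERCC2, the XPD helicase of the same complex, had overlapping groups (log2 change 0.10, limma adjusted p = 0.747), as did XPA (-0.12, limma adjusted p = 0.745). ERCC4, the XPF nuclease subunit, went from 381 and 466 to 265 and 283 (log2 change -0.62, SE 0.17, limma adjusted p = 0.0185), a call lost without Control 2 (0.215), SLFN5 siRNA 1 (0.0675) or in limma-voom with library totals (0.0606). Its partner ERCC1 had a log2 change of -0.20 (limma adjusted p = 0.300). The other nuclease, ERCC5, stood above the controls in both libraries, at 728 and 676 against 581 and 549, but did not pass (log2 change 0.31, SE 0.14, limma adjusted p = 0.113), except in limma-voom (0.0397).

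Neither gene of transcription-coupled recognition passed in limma on the equalised counts. ERCC6 (CSB) stood at 68.7 and 94.2 equalised counts in the controls and at 131 and 119 after SLFN5 siRNA (log2 change 0.62, SE 0.26, limma adjusted p = 0.0949), and passed in limma-voom (0.0350). ERCC8 (CSA) stood at 187 and 209 against 187 and 187 (log2 change -0.08, SE 0.20, limma adjusted p = 0.803). UVSSA, a partner of these proteins listed outside the 39 genes, was higher, with a log2 change of 0.82 (limma adjusted p = 0.00244).

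Of 41 further repair genes tested, 5 were higher and 12 lower (41.5%, against 29.6% of all genes), with a median log2 change of -0.24. The largest decreases were those of COPS2, a subunit of the COP9 signalosome that regulates CUL4 ligases (1460 and 1557 against 554 and 562, log2 change -1.43, SE 0.13, limma adjusted p = 2.61e-05), and RBX1, the RING subunit of those ligases (log2 change -1.06). RBX1 was lost without Control 2 or SLFN5 siRNA 2. The clamp loader subunit RFC3 and the single-strand binding subunit RPA2 had log2 changes of -0.78 each. Besides UVSSA, the higher genes included the scaffold SLX4 (0.81), XRCC1 (0.45) and the TFIIH subunit GTF2H1 (0.40), of which XRCC1 was lost when any of the 4 libraries was left out and GTF2H1 without Control 1 or SLFN5 siRNA 2.

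Upstream of p53, 3 of 23 tested regulators were higher and 5 lower (34.8%, against 29.6% of all genes), with a median of -0.17. ATM and ATR, the kinases that signal breaks and stalled replication to p53, went opposite ways. ATM rose from 749 and 885 equalised counts to 1355 and 1757 (log2 change 0.92, SE 0.15, limma adjusted p = 0.00101). ATR fell from 2357 and 2905 to 1148 and 1299 (log2 change -1.10, SE 0.13, limma adjusted p = 0.000155). The deubiquitinase USP7, which stabilises MDM2 and p53, and TRIM28, an MDM2 cofactor, were lower with log2 changes of -0.63 and -0.61. USP10 and CHEK2 were lower too (-0.51 and -0.58), and HDAC1 and TP53BP2 were higher (0.51 and 0.49). CHEK2 was lost without Control 1, Control 2 or SLFN5 siRNA 1, TP53BP2 without Control 2 or SLFN5 siRNA 1, and HDAC1 without Control 2.

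Further p53 targets outside the 39 genes also split, with 8 of 46 higher and 4 lower (26.1%, against 29.6% of all genes). Their median was -0.08. PERP, a desmosomal protein with a role in cell death, rose 3.71-fold from 269 and 261 equalised counts to 939 and 1025 (log2 change 1.88, SE 0.15, limma adjusted p = 1.12e-05). The secreted stress factor GDF15 stood at 425 and 347 against 1103 and 1113 (log2 change 1.53), annexin ANXA4 had a log2 change of 1.60 and the noncoding RNA TP53TG1 one of 1.59. SFN, which encodes 14-3-3 sigma, rose from 7.95 and 9.96 to 43.0 and 47.5 (log2 change 2.22, SE 0.45). It reached the filter only through the SLFN5 siRNA libraries, where it was high, so its call among the 8 is not read as a result. The growth factor HBEGF fell from 1059 and 1626 to 266 and 306 (log2 change -2.20, SE 0.19, limma adjusted p = 2.47e-05). The receptor kinase EPHA2 had a log2 change of -1.15. Without the intensity trend, COPS2, RPA2, ATR, PERP, GDF15, TP53TG1, HBEGF and EPHA2 also passed. Of the called genes named in the 3 wider lists, the others apart from SFN did not.

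**Figure D3:**
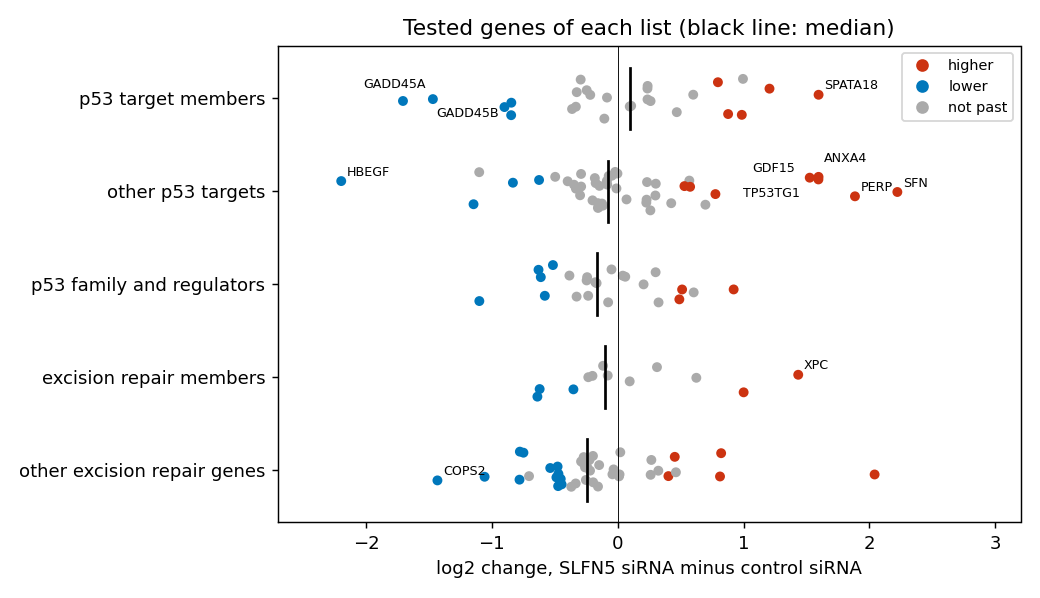
Log2 change (horizontal axis) of every tested gene in 5 lists: the p53 targets and repair genes described here and 3 lists of further pathway genes. Each point is a gene, red when higher and blue when lower at an adjusted p of 0.05, with the median as a black line. All 5 medians lie between -0.24 and 0.10, while single genes reach -2.20 (HBEGF) and 2.22 (SFN). SFN reached the filter only through the SLFN5 siRNA libraries.

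For many of these genes the 2 libraries of a group differed in the same direction in both groups. Library 1 lay above library 2 in both groups for 21 of the 39 genes (53.8%), against 32.5% of all genes tested, and library 2 above library 1 in both for 7 (17.9%, against 4532 of all 15640 genes). All 6 genes for metabolism and mitochondria within the 39 were among the 21, whereas TIGAR, given apart, did not show this pattern. The ratio of library 1 to library 2 was at least 1.25 in both groups for 4 genes (10.3%, against 7.16% of all genes). These were SPATA18 (2.34 in the controls and 1.52 after SLFN5 siRNA), TP53I3 (1.75 and 1.58), TP53INP1 (1.48 and 1.83) and BBC3 (1.40 and 1.63). For TP53INP1 this difference within the groups exceeded the difference between them. Control 1 was also the deepest library, whereas the SLFN5 siRNA libraries were of similar depth (17117659 and 14700669 recovered counts). Libraries with the same number also share a title prefix across the groups, and the labels do not say what it marks. The part of depth or of what the prefix marks in these differences was not tested.

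**Figure D4:**
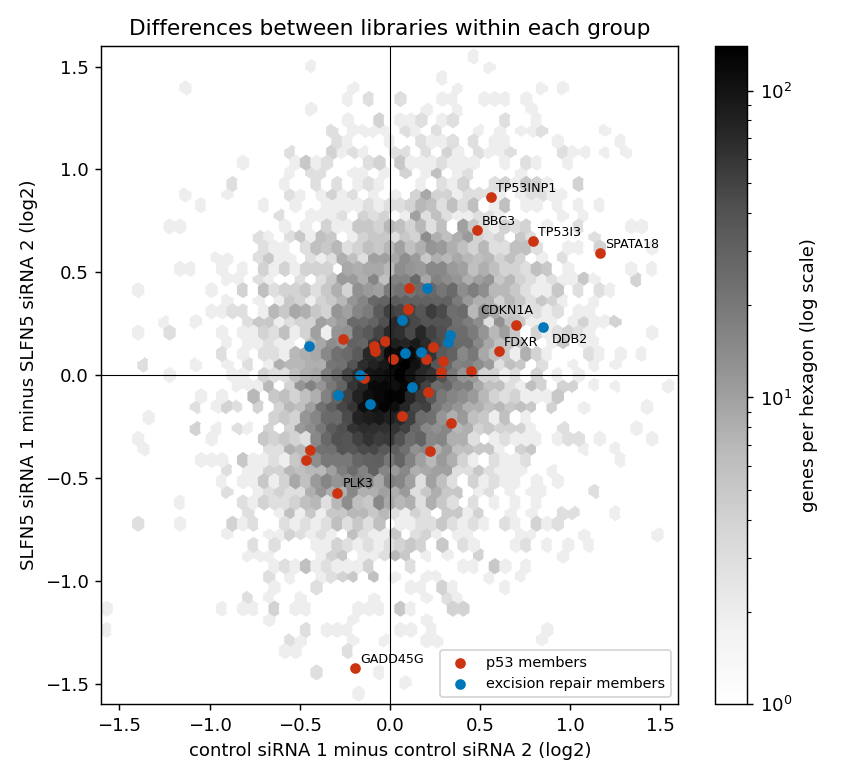
Difference between the 2 libraries of a group on the log2(value + 1) scale, controls on the horizontal and SLFN5 siRNA on the vertical axis, for all tested genes (grey hexagons, darker for more genes, 470 genes outside the plotted range) and the 39 genes (red, p53 targets; blue, excision repair). The upper right corner, where library 1 is above library 2 in both groups, holds 21 of the 39, with SPATA18, TP53I3, TP53INP1 and BBC3 farthest out.

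Both SLFN5 siRNA libraries lay on one side of both controls for 27 of the 39 genes (69.2%, against 64.6% of all genes), 13 above and 14 below. The library kit the labels name does not mark strand, and in the GENCODE 29 annotation 17 of the 39 genes share exon sequence with a gene on either strand. Of the overlapping genes, those past the test were LSM3 at XPC (log2 change -0.44), ACTA2 at FAS (1.33) and TKFC at DDB1 (1.07). All lie on the opposite strand. How reads in shared exon sequence were counted was not given, and their part in these values was not tested.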

How the data were processed

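Poly(A) libraries (Illumina TruSeq RNA kit v2, single-end reads, per the labels' protocols) of 2 control siRNA and 2 SLFN5 siRNA samples were used. The authors deposited 1 table with a signal value per Ensembl gene and library that is not whole. The submitters' processing notes name edgeR and the hg19 build, while aligner, counter and annotation version were not given in these sources. The values have the form of counts moved by quantile adjustment to a common library size within each group, called equalised counts here. Inverting that adjustment with a dispersion of 0.0162 returned whole counts for all 230636 values (100%, tolerance 1e-06). The deposited values summed to 17078455 to 19089548 per library, and the recovered counts were used for depth and in limma-voom.

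The 15640 genes that reached 10 in 2 or more libraries were tested on log2(value + 1) with limma 3.58.1 in R 4.3.3 (trended empirical Bayes, 2 residual degrees of freedom, Benjamini-Hochberg adjustment), which was tested on simulated data. Fold changes on this scale understate those of low genes. The 39 genes and the wider lists were chosen with earlier results of these data known. By the rule for named genes, each of the 39 past an adjusted p of 0.05, and MDM2, CDKN1A, BAX and BBC3 in any case, was described with its library values, the rest by means or log2 changes, and up to 6 genes with the largest changes among those past the threshold from each wider list. The others named from those lists (HDAC1, TP53BP2, RPA2, XRCC1, GTF2H1, EPHA2, TNFRSF10A, TNFRSF10C and TNFRSF10D) were chosen after their values were seen. The alternatives were other pseudocounts, filters and scalings, limma without its trend, limma-voom, a replicate block and leaving out each library. Promoter windows and gene starts came from RefSeq (GRCh38.p14), names and exon overlaps from GENCODE 29, and no coordinate was carried between builds. Protein sequences were not used here. A few genes of the rule and the lists are not reported here.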

Additional observations from a re-analysis of the deposited data

How the results depend on the processing

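None of the 15 called genes changed direction under the 13 alternatives, while 9 of the 24 others did and 12 of them passed under at least 1. Leaving out each library in turn, their log2 changes ran from -0.24 to 1.18 for GADD45G, -0.37 to 0.20 for PLK3, -0.77 to 0.10 for TP53INP1, -0.32 to 0.11 for ZMAT3, -0.023 to 0.21 for SESN1, -0.12 to 0.33 for SESN2, -0.16 to 0.0026 for ERCC8, -0.28 to 0.046 for XPA and -0.12 to 0.31 for ERCC2. In limma-voom PLK3 (0.052), ZMAT3 (0.011) and ERCC8 (0.057) turned. Without limma's intensity trend, 1182 of all genes passed (672 higher, 510 lower). The p53 targets past the test were then 6 (1 higher), the repair genes 1 (1 higher, 0 lower), and the wider pathway genes 11 of the 37 in the report (6 higher, 5 lower). By an unadjusted limma p under 0.05 in that setting, 2 repair genes were lower and 3 higher. Limma-voom with library totals gave 8 higher p53 targets and, among repair genes, 4 higher and 1 lower, with the median of all genes shifted by 0.118 on the log2 scale. Leaving out each library in turn gave 2941 to 3951 genes (1353 to 1791 higher, 1588 to 2300 lower), 7 to 13 p53 targets (2 to 7 higher, 5 to 6 lower), 2 to 5 repair genes (1 to 2 higher, 1 to 3 lower) and 26 to 35 wider pathway genes (11 to 13 higher, 15 to 22 lower). A lone library left in a group was assumed to vary like the other group.

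Libraries with the same number share a prefix in their titles, and the labels do not say what it marks. The difference of library 1 minus library 2 had r = 0.19 between the groups across 15640 genes and 0.55 across the 39 genes, which are not independent, and with 2 pairs the numbers were not taken to pair the samples. With the replicate block, 6703 genes passed (3008 higher, 3695 lower), 19 p53 targets (9 higher, 10 lower), 8 repair genes (4 higher, 4 lower) and 59 wider pathway genes (24 higher, 35 lower). BAX and BBC3 were among those that passed only with it or another alternative (limma adjusted p = 0.0255 and 0.00293 with the block). CCNG1, FAS, PHLDA3, RRM2B and DDB1 passed with the block and under no other alternative (limma adjusted p = 0.0388, 0.0259, 0.0481, 0.0401 and 0.0184). The causes of these shifts were not tested. With 2 libraries per group and 2 residual degrees of freedom, low genes such as GADD45G, TP53I3 and SPATA18 had standard errors from 0.36 to 0.55 on the log2 scale, so changes of that size were not detectable in them.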

Other observations

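The deposited table is not in one order of gene identifiers. It falls into 3 stretches, each sorted by identifier. The first holds 956 genes, of which 875 were tested, and all 875 had a log2 change above 0, the smallest 0.91. The second holds 570 genes, of which 520 were tested, and all 520 had a log2 change below 0, the smallest in size 0.74. BTG1, SPATA18 and XPC stand in the first, GADD45A and GADD45B in the second, and the other 34 genes in the third, which holds DDB2 and CDKN1A among them. The labels do not say how the stretches were made.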
